A study of Mus musculus with 7 samples.

Results

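Globins carry oxygen in red cells, and their transcripts show which red cells accompany a tissue. The set described here holds the mouse embryonic globins Hba-x, Hbb-bh1 and Hbb-y, the adult globins Hba-a1, Hba-a2, Hbb-bs and Hbb-bt, and 2 other red cell genes, Alas2 and Slc4a1. Members were taken by gene symbol, and 8 of the 9 named genes matched a row among the 31531 genes of the table. Hbb-y had no row and was not analysed here. RNA was measured at E17.5 in muscle fibers of 4 WT and 3 dyW fetuses. The fetuses came from crosses of heterozygous dyW mice on a C57BL/6 background. The dyW fetuses are homozygous for a disrupted Lama2 allele that acts in every tissue, and the WT fetuses carry no such allele. Fibers were freed from the epaxial (back) muscles with dispase and collagenase and collected from a strainer, through which free cells can pass, and washed before lysis. In these bulk libraries, fewer red cells and less RNA per red cell cannot be told apart.

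Red cells form in waves. Primitive red cells of the yolk sac use the zeta-like alpha gene Hba-x and the beta-like genes Hbb-bh1 and Hbb-y, whereas definitive red cells, made in the fetal liver and later in the marrow, use the adult genes, so circulating blood of a late fetus is dominated by definitive cells. A hemoglobin molecule pairs alpha-type with beta-type chains around heme. Alas2 makes the first, rate-limiting step of erythroid heme synthesis, and Slc4a1 (band 3) is the anion exchanger of the red cell membrane.

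The alpha-type members lie on chromosome 11 of GRCm39, with Hba-x at chr11:32226400-32228116, Hba-a1 at chr11:32233186-32234504 and Hba-a2 at chr11:32246168-32247320, all on the plus strand. The beta-type members lie on the minus strand of chromosome 7, with Hbb-bt at chr7:103461727-103465047, Hbb-bs at chr7:103475730-103482989 and Hbb-bh1 at chr7:103490844-103492371. Alas2 is at chrX:149330371-149353634 (plus strand) and Slc4a1 at chr11:102239650-102257029 (minus strand). Hbb-bs overlaps 3 other annotated genes, Hbb-bt 1, Hbb-bh1 1 and Alas2 2, and the strand setting of the counting is not given in the sources used here, so reads in those overlaps are uncertain.

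The adult copies are almost identical in sequence, and their separate counts are read with that in view. The stretches of exon 3 below, all coding sequence of GRCm39, hold the single coding position at which each adult pair differs, and the same stretch of the embryonic genes is shown beside them. Capitals mark the bases that differ from the partner named.
Hba-a1 (chr11:32234298-32234387, against Hba-a2): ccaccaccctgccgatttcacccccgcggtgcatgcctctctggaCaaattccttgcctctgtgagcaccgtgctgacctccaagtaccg
Hba-a2 (chr11:32247115-32247204, against Hba-a1): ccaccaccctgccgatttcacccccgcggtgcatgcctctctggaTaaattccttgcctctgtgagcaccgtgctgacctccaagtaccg
Hba-x (chr11:32227915-32228004, against Hba-a1): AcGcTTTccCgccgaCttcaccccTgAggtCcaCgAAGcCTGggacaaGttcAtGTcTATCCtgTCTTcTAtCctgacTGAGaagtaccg
Hbb-bs (chr7:103475872-103475961, against Hbb-bt): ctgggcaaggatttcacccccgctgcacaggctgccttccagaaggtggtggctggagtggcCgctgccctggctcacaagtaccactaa
Hbb-bt (chr7:103461863-103461952, against Hbb-bs): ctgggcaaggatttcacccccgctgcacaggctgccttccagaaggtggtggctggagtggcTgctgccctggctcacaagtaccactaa
Hbb-bh1 (chr7:103490959-103491048, against Hbb-bs): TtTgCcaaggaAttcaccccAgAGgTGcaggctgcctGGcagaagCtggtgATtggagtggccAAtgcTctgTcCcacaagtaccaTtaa

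Hba-a1 and Hba-a2 differed at 1 of 429 coding positions, C381T, and Hbb-bs and Hbb-bt at 1 of 444, C417T, counting from the A of the start codon. By contrast, Hba-x was 62.0% identical to Hba-a1 and Hbb-bh1 74.1% identical to Hbb-bs over the coding sequence. Of all windows of 100 bases in the mRNA, 73.6% of those of Hba-a1 also occurred in Hba-a2, and 58.9% of those of Hbb-bs also occurred in Hbb-bt. No such window of Hba-x or Hbb-bh1 occurred in another globin gene. Only uniquely mapped reads were counted, so the adult genes were measured mainly by the parts in which the copies differ.

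The normalized count of a gene is its number of reads divided by 1 size factor per library. The number of reads on genes ran from 470804 to 2220813 in WT and from 3663905 to 18297106 in dyW. A single read was therefore worth 2.05 to 5.33 normalized counts in WT but 0.0974 to 0.488 in dyW. A count of 0 allows up to 3 reads, or 16.0 normalized counts in WT1 and 0.292 in dyW1. The targeted gene, Lama2, reached 139.7 normalized counts in the library labelled dyW3 against 90.6 to 111 in WT, which goes against that label. Its value was 4.29 in dyW1 and 6.07 in dyW2.

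The adult globins were among the most abundant transcripts of 5 libraries and almost absent from the other 2. Hbb-bs, the more abundant adult beta gene, had normalized counts of 0, 148808, 81953 and 72396 in WT1 to WT4. In the dyW group its normalized counts were 6.53 in dyW1, 10731 in dyW2 and 111497 in the library labelled dyW3. The groups overlapped from end to end, with WT1 and dyW1 low and every other library high. Hbb-bs was the gene with the highest normalized count in the library labelled dyW3 and ranked between 6 and 13 in WT2, WT3, WT4 and dyW2.

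Hbb-bt, the second adult beta gene, followed the same libraries. Its normalized counts were 0, 61854, 41916 and 28203 in WT1 to WT4. They were 1.36, 2433 and 19975 in dyW1, dyW2 and the library labelled dyW3. WT1 and dyW1 were again the lowest, and among the other 5 libraries each of the 3 WT values lay above both dyW values.

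For the adult alpha genes, WT1 and dyW1 were again the lowest, but the library labelled dyW3 lay above WT4. Hba-a1 had normalized counts of 5.33 (1 read), 42384, 24495 and 15506 in WT1 to WT4, against 0.195, 8802 and 22425 in the dyW libraries. Hba-a2 had 0, 37983, 23479 and 13788 in WT1 to WT4, against 0.585, 6595 and 17799 in dyW. The groups overlapped for both genes. Over the 7 libraries, the Pearson correlations between pairs of adult globins on the log2 scale lay between 0.971 and 0.995. This description includes WT1 and dyW1, far below the other libraries, and the shared sequence of the copies also touches it.

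**Figure D1:**
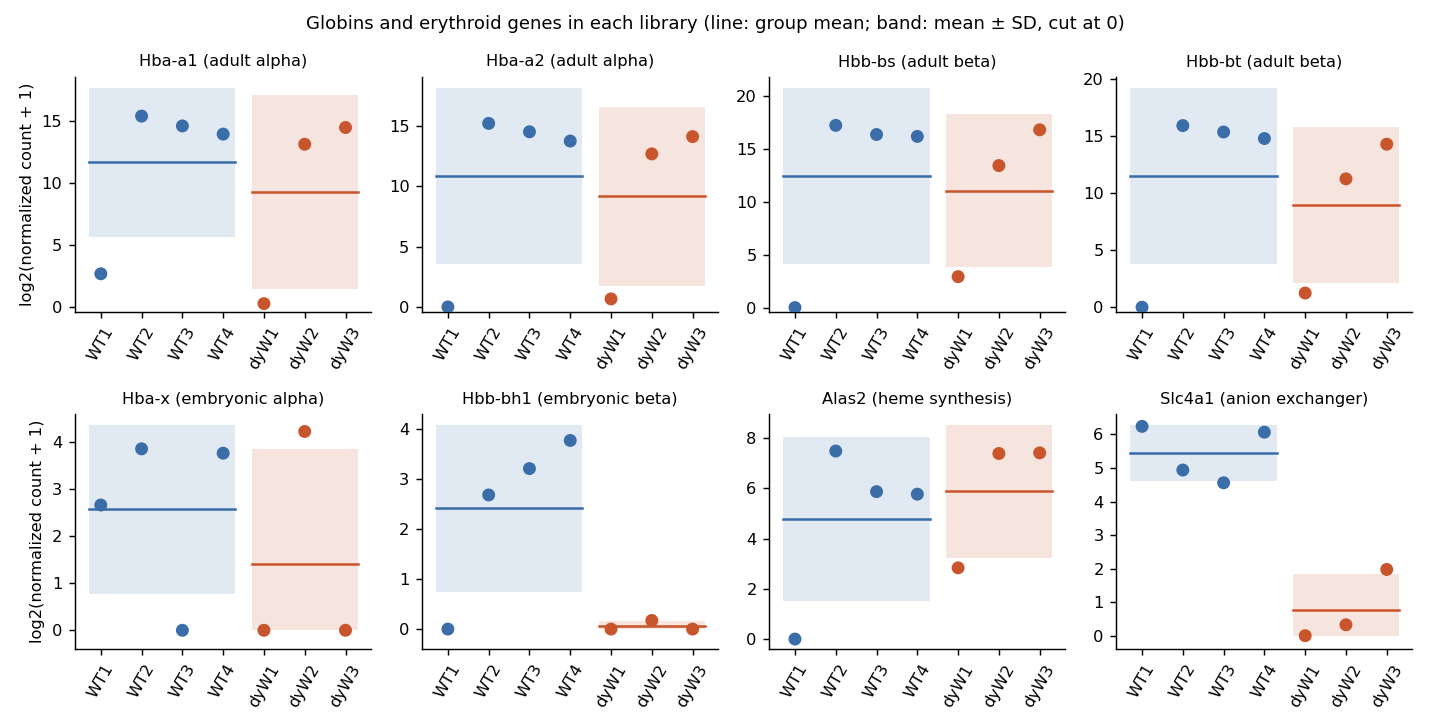
Each panel plots 1 gene in the 7 libraries as log2(normalized count + 1), with WT in blue and dyW in orange, and the vertical scale differs between panels; lines are group means and bands the mean ± SD (n = 4 and n = 3), cut at 0. The 4 adult globins were near 0 in WT1 and dyW1 and high in the other 5 libraries, whereas Slc4a1 was higher in every WT library than in any dyW library.

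None of the 4 adult globins passed the thresholds between genotypes in limma, in the voom fit or at an unadjusted P-value under 0.05. The mean normalized count of Hbb-bs was 75789 ± 60897 in WT (SD, n = 4) against 40745 ± 61508 in dyW (SD, n = 3), so the groups differed by less than the spread within either (P = 0.571, exact two-sided permutation test). For Hbb-bs, limma gave a log2 fold change of −1.39 ± 4.54 (SE) and an adjusted P-value of 0.837. Hbb-bt gave −2.59 (SE 4.24, limma adjusted P-value of 0.670), with means of 32993 ± 25975 and 7470 ± 10898. For Hba-a1 and Hba-a2 the log2 fold changes were −2.36 (SE 3.92) and −1.71 (SE 4.22), with limma adjusted P-values of 0.674 and 0.781. Fold changes here are dyW minus WT on log2(normalized count + 1), and the median over the 25791 tested genes was −1.99, so the adult globins lay between 0.60 below and 0.60 above that median. Without dyW1 the estimates turned positive for all 4 genes, from 1.25 for Hbb-bt to 2.67 for Hbb-bs, and without WT2 that of Hbb-bs was 0.20. Without WT1 they moved the other way, to between −6.43 for Hbb-bt and −5.34 for Hba-a2. Without both WT1 and dyW1, the mean of Hbb-bt was 43991 ± 16921 in WT (SD, n = 3) against 11204 ± 12404 in dyW (SD, n = 2). Its log2 fold change in that limma fit was −2.58 (adjusted P-value of 0.0764). That fit called 0 of all tested genes lower and 0 higher, so the lack of a call is not particular to the members.

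The 6 measured globin genes together took 7.31%, 3.77% and 2.34% of the counts in WT2 to WT4, but 0.00042% in WT1 (2 of 470804 reads, 95% exact interval from 0.000051% to 0.0015%). They took 1.24% in dyW2 and 9.60% in the library labelled dyW3, but 0.00062% in dyW1 (89 of 14363788 reads, from 0.00050% to 0.00076%). The highest and the second lowest share both came from the dyW group. The mean share was 3.36% ± 3.06 in WT (SD, n = 4) against 3.61% ± 5.22 in dyW (SD, n = 3), a difference far smaller than the spread in either group. Intervals here cover counting error only, since reads from PCR without molecular identifiers are not independent molecules.

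WT1 and dyW1 were also the lowest of their group in muscle fiber transcripts. The 13 muscle fiber markers, among them Acta1 (skeletal actin) and Mylpf (a fast myosin light chain), summed to 2788 normalized counts in WT1 against 17032 to 80126 in the other WT libraries. The sum was 69.9 in dyW1, where 6 of the 13 markers had no read, against 10858 in dyW2 and 6554 in the library labelled dyW3. Acta1 itself was at 1973 in WT1 and 4.09 in dyW1. The endothelial markers summed to 618 in WT1 against 761 to 850 in the other WT libraries. In dyW1 they summed to 1633, the highest of the series, against 995 to 1034 in the other dyW libraries. The leukocyte markers were likewise lowest of their group in WT1 (192) and dyW1 (74.3). The platelet markers were lowest in WT3 and dyW1, and the liver markers in WT1 and dyW2. The part of fiber recovery in the globin values was not tested.

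**Figure D2:**
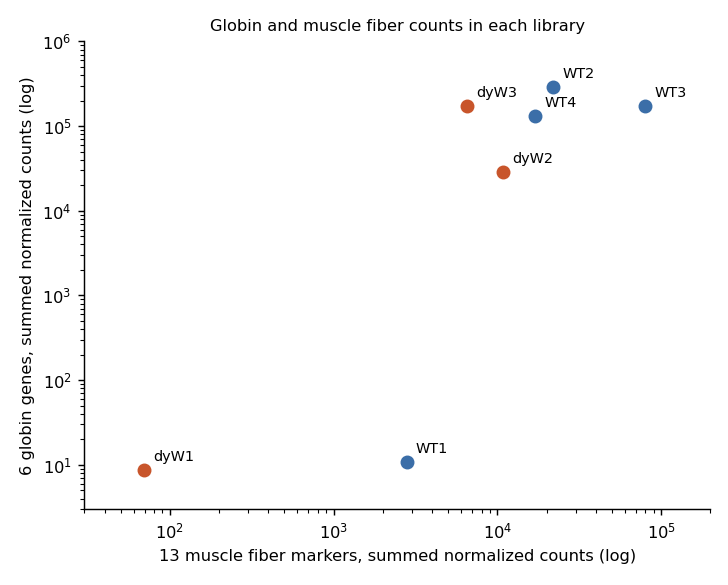
Each point is 1 library (WT blue, dyW orange), with the summed normalized counts of 13 muscle fiber markers on the horizontal axis and of the 6 measured globin genes on the vertical axis, both on log scales. WT1 and dyW1 lie at the bottom, at 10.7 and 8.67 summed globin counts, and the other 5 libraries lie between 28579 and 291047.

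The 5 genes most like Hbb-bs across the 7 libraries, among 6106 genes that averaged 50 or more normalized counts and by Pearson correlation of log2(normalized count + 1), were Tpm2 (0.973), Fut9 (0.963), Lmcd1 (0.963), Rps26 (0.962) and Hspb1 (0.961). Tpm2 encodes a tropomyosin of the muscle thin filament and Rps26 a protein of the small ribosomal subunit. Without WT1 and dyW1 the correlation of Tpm2 with Hbb-bs was 0.163 and that of Hspb1 0.767, so the likeness rested largely on those libraries.

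Within the globin reads, the balance between the genes can be read without the size factors. Shares are descriptions without a test and are given for libraries with at least 50 reads in the denominator, a limit chosen after seeing that WT1 held 2 globin reads. Alpha-type genes took 27.6%, 27.9% and 22.6% of the globin reads in WT2 to WT4. They took 53.9% in dyW2 and 23.4% in the library labelled dyW3, and 8.99% in dyW1 (8 of 89 reads, 95% exact interval from 3.96% to 16.9%). The 3 WT libraries were close together, at 26.0% ± 3.01 (SD, n = 3), whereas the dyW libraries spread on both sides of them, at 28.8% ± 23.0 (SD, n = 3). dyW2 was the library with more alpha-type than beta-type reads.

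Hbb-bt took a larger part of the adult beta reads in WT2, WT3 and WT4 than in any library labelled dyW. Hbb-bt made up 29.4%, 33.8% and 28.0% of the adult beta reads in WT2 to WT4. It made up 18.5% in dyW2, 15.2% in the library labelled dyW3 and 17.3% in dyW1, where the share rests on 81 reads (95% exact interval from 9.78% to 27.3%). The means were 30.4% ± 3.04 in WT (SD, n = 3) against 17.0% ± 1.66 in dyW (SD, n = 3), and the groups did not overlap. The adult alpha genes moved less: Hba-a2 made up 47.1% to 48.9% of the adult alpha reads in WT2 to WT4, against 42.8% in dyW2 and 44.2% in the library labelled dyW3. These comparisons of adult copies were chosen after the values were seen and were not tested, and the beta shares rest on n = 3 libraries a group. Lama2 stood at 139.7 normalized counts in the library labelled dyW3, which goes against that label. Unique mapping assigns the reads of each pair through windows that the copies do not share, which hold the differing base shown above and differences outside the coding sequence that are not shown, and the part of read assignment in these shares was not tested.

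**Figure D3:**
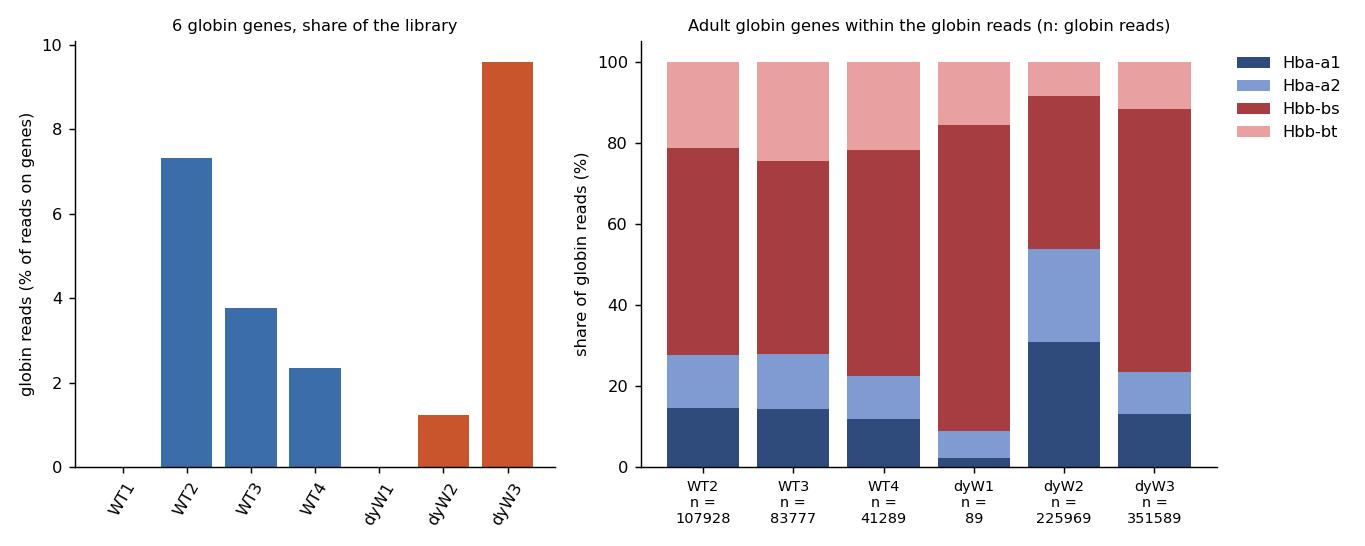
The left bars give the share of the reads on genes that fell on the 6 measured globin genes (%) in each library, WT in blue and dyW in orange. The right bars split the globin reads of the 6 libraries other than WT1 among the 4 adult genes (%), with the number of globin reads below each bar; the Hbb-bt segment, at the top, is larger relative to Hbb-bs in the 3 WT libraries, and the alpha segments, at the bottom, are largest in dyW2.

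Embryonic globin transcripts were close to the limit of detection. Hba-x had 1, 5, 0 and 4 reads in WT1 to WT4, or 5.33, 13.5, 0 and 12.6 normalized counts. In dyW it had 140 reads in dyW2, or 17.7 normalized counts, and 0 in dyW1 and in the library labelled dyW3. dyW2 was thus the library in which Hba-x rested on more than 5 reads, although its normalized count there was close to those of WT2 and WT4. The group means were 7.85 ± 6.38 (SD, n = 4) and 5.90 ± 10.2 (SD, n = 3), and the log2 fold change of −1.16 (SE 1.33, limma adjusted P-value of 0.532) did not pass the thresholds. It was −3.65 with voom, −2.57 without dyW2, −0.46 without dyW1 and 1.38 after quantile normalization.

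Hbb-bh1 stands alone for the embryonic beta genes, since Hbb-y had no row. It had 0, 2, 4 and 4 reads in WT1 to WT4 and 0, 1 and 0 in the dyW libraries. In normalized counts these were 0, 5.39, 8.21 and 12.6 against 0, 0.126 and 0. Its mean over the libraries, 3.76, was under the minimum of 5 for the limma fit. The exact two-sided permutation test gave P = 0.229 between genotypes, and WT1 overlapped with dyW.

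The WT reads of the embryonic genes were also set beside a class of genes used mainly outside muscle and blood, a comparison chosen after the values were seen. The 1207 odorant and vomeronasal receptor genes of the table, used by sensory neurons of the nose, had a median of 0.706, 2.63, 1.85 and 1.97 reads per kb of mRNA in WT1 to WT4. Their median was 0 in dyW1 and dyW2 and 1.14 in the library labelled dyW3. At this level, an mRNA of the length of Hba-x (801 bases) would hold between 0.566 and 2.10 reads in a WT library, and that of Hbb-bh1 (613 bases) between 0.433 and 1.61. The WT values of Hba-x were 0 to 2.53 times and those of Hbb-bh1 0 to 3.53 times the receptor level. The 140 reads of Hba-x in dyW2 stood against a receptor median of 0. Alas2 reached 4.24 to 12.3 times the receptor level in WT2, WT3 and WT4.

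**Figure D4:**
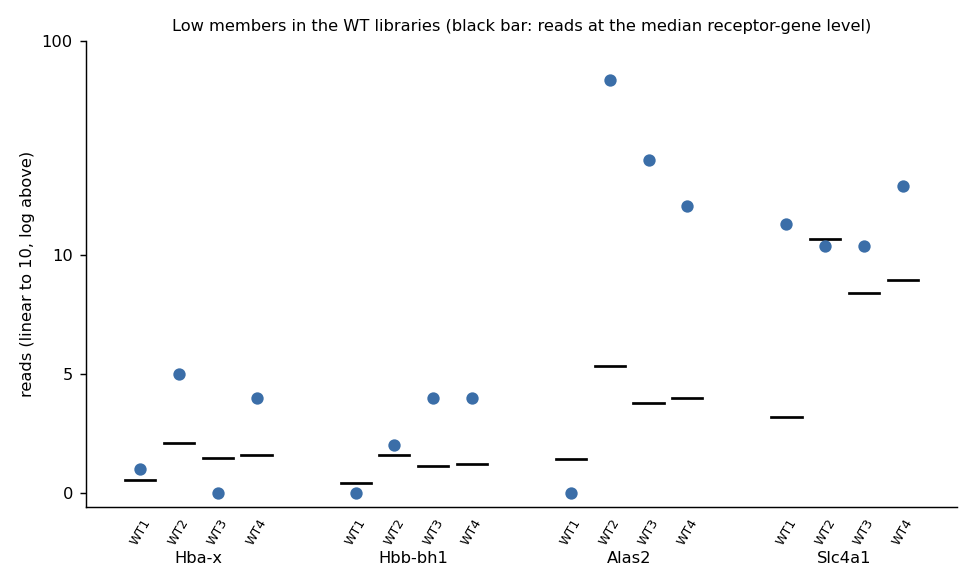
Points give the reads of Hba-x, Hbb-bh1, Alas2 and Slc4a1 in each WT library, on an axis that is linear to 10 and logarithmic above, and black bars the reads that an mRNA of the same length would hold at the median level of 1207 odorant and vomeronasal receptor genes. Alas2 lies above its bars in WT2, WT3 and WT4, and Slc4a1 lies just under its bar in WT2 and close to it in WT3.

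Set against the adult genes, the embryonic share of globin reads, from Hba-x and Hbb-bh1 without Hbb-y, was 0.0065%, 0.0048% and 0.019% in WT2 to WT4. It was 0.062% in dyW2 (141 of 225969 reads, 95% exact interval from 0.053% to 0.074%). In the library labelled dyW3 no embryonic read was found among 351589 globin reads, which allows a share of up to 0.00085%. In dyW1, 0 of 89 reads allows up to 3.37%, so an embryonic share of the size seen in the other libraries was not detectable there. The means were 0.010% ± 0.0080 in WT (SD, n = 3) against 0.021% ± 0.036 in dyW (SD, n = 3), with dyW1 entering as 0. The difference was 0.011 percentage points, 0.021 without dyW1 and −0.010 without dyW2.

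The 2 chain types differed in where the embryonic reads fell. Within the alpha genes, Hba-x took 0.017% of reads in WT2, 0.043% in WT4 and 0.115% in dyW2, and 0 of 23387 reads in WT3 (up to 0.013%) and of 82369 in the library labelled dyW3 (up to 0.0036%). Within the beta genes, Hbb-bh1 took 0.0026%, 0.0066% and 0.013% in WT2, WT3 and WT4 and 0.00096% (1 read) in dyW2. It took 0 of 269220 reads in the library labelled dyW3, up to 0.0011%, and 0 of 81 in dyW1, up to 3.70%. In dyW2 the reads of Hba-x were thus not matched by reads of Hbb-bh1, and Hbb-y, the other embryonic beta gene, was not measured. The theta-type alpha genes of the same cluster, Hbq1a and Hbq1b, had 12.6 and 13.7 normalized counts in dyW2 (100 and 108 reads), 0 to 9.44 and 0 to 5.39 in the WT libraries (0 to 3 reads), 0 in dyW1, and 0 and 2.93 in the library labelled dyW3. Hbq1b is named after its values were seen. On this scale, which takes the unequal depth of the libraries into account, dyW2 was the highest of the 7 for both genes, and the WT values rest on too few reads to place them.

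On the scale of levels per kb of mRNA, the mean over the 7 libraries was 91522 normalized counts for Hbb-bs, 31327 for Hbb-bt, 21993 for Hba-a1 and 22002 for Hba-a2. It was 44.2 per kb for Alas2, 8.76 for Hba-x, 6.16 for Slc4a1 and 6.13 for Hbb-bh1. Hbb-bs had the highest level per kb of the members in every library other than WT1, where it had no read. The step from the adult globins to the other members held in WT2, WT3, WT4, dyW2 and the library labelled dyW3.

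The genes most like Hba-x by the same measure were Abcc9 (0.962), Ift122 (0.957), Cep128 (0.945), 9030624J02Rik (0.914) and Sart1 (0.899), over 7 libraries in which Hba-x held between 0 and 140 reads.

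Alas2 had normalized counts of 0, 178, 57.4 and 53.5 in WT1 to WT4, against 6.14, 166 and 169 in dyW1, dyW2 and the library labelled dyW3. Like the adult globins it was lowest in WT1 and dyW1, and the groups overlapped. The means were 72.2 ± 75.2 (SD, n = 4) and 114 ± 93.4 (SD, n = 3), and limma gave a log2 fold change of 1.10 ± 1.83 (SE) with an adjusted P-value of 0.676, or −0.49 without WT1. Measured against the globin reads of the same library, Alas2 had 0.612, 0.334 and 0.412 reads per 1000 globin reads in WT2, WT3 and WT4, and 5.82 and 0.987 in dyW2 and the library labelled dyW3. Both dyW values lay above the 3 WT values. In dyW1 its 63 reads stood beside 89 globin reads.

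Slc4a1 did not follow the globins. Its normalized counts were 74.6, 29.7, 22.6 and 66.1 in WT1 to WT4, from 14, 11, 11 and 21 reads. They were 0 in dyW1, 0.253 in dyW2 and 2.93 in the library labelled dyW3, from 0, 2 and 6 reads. Every WT library lay above every dyW library, and the highest value came from WT1, which held 2 globin reads. The means were 48.2 ± 25.9 (SD, n = 4) and 1.06 ± 1.62 (SD, n = 3), a log2 fold change of −4.68 (SE 0.826, limma adjusted P-value of 0.00430), and the exact two-sided permutation test gave P = 0.0571, the smallest that 35 splits allow.

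Slc4a1 was the 1 member called lower in dyW, at an adjusted P-value below 0.01 with a log2 fold change beyond 1.5 in size, of the 7 that reached the minimum. Its dyW mean of 1.06 lay under the minimum of 5, which Slc4a1 passed only through WT. No member was called higher by limma or voom, or was higher at an unadjusted P-value under 0.05. Over all tested genes, 18.7% were called lower and 0.0659% higher, and in 31.5% every WT library lay above every dyW library, so 1 of 7 is near the background. Measured from the median of the tested genes, Slc4a1 changed by −2.70 on the log2 scale. Its WT reads were 4.36, 0.922, 1.31 and 2.35 times the receptor level in WT1 to WT4, and of the 1083 tested receptor genes 37.0% were called lower, with a median log2 fold change of −3.22. The part of this low-level signal in the Slc4a1 difference was not tested. The call was lost when every library was scaled to 1 common total (limma adjusted P-value of 0.0217) and after quantile normalization (0.287). It was also lost with voom on the recovered reads (0.135) and without WT1, WT2, WT4, dyW1 or dyW2 (0.0109 to 0.0169). The fold change stayed negative in each of these fits. With the common total, and without WT2, WT4 or dyW2, 0 of all tested genes were called lower.

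The wider erythroid program was described with 4 lists holding 53 genes, of which 51 had a row and 48 were tested. Of these, limma called 5 lower, or 10.4% against 18.7% of all tested genes, and 0 higher, and voom called 4 lower and 0 higher. Before adjustment, at a threshold of 0.05, 16 were lower and 2 higher, together 37.5% against 44.3% of all tested genes. The median log2 fold change of these genes was −1.39 against −1.99 for all tested genes, and the lists differed among themselves. All 5 called genes averaged under the minimum of 5 normalized counts in dyW, so each passed it only through WT. The call was lost for all 5 genes when the libraries were scaled to the same total. With that scaling, 0 of the 25791 tested genes were called lower.

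Among heme synthesis enzymes and transporters, 0 of 12 were called by limma or voom, against 18.7% of all tested genes called lower by limma. At an unadjusted P-value under 0.05, 1 was lower (8.33%), against 44.3% of all tested genes in either direction. The median log2 fold change was −1.26 against −1.99 for all tested genes. Fech, which inserts iron into the ring, was the most abundant, with a mean normalized count of 315 ± 240 in WT (SD, n = 4) against 156 ± 78.5 in dyW (SD, n = 3). The WT mean of Fech was set by 672 in WT1, against 152 to 224 in WT2 to WT4. Slc25a37, the mitochondrial iron importer, was at 36.2 ± 10.9 in WT and 192 ± 241 in dyW, the latter set by 468 in the library labelled dyW3. Tmem14c, a mitochondrial porphyrin carrier, had means of 72.6 ± 44.9 and 84.9 ± 71.8.

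Of 8 tested erythroid transcription factors, 2 were called lower by limma and by voom, a number near the background of 18.7%. Gata1, the master regulator of the lineage, had normalized counts of 80.0, 40.5, 10.3 and 15.7 in WT1 to WT4 and at most 0.292 in dyW (limma adjusted P-value of 0.00449). Nfe2, which drives globin and platelet genes, had 12.3 to 42.6 in WT and 0 in every dyW library (limma adjusted P-value of 0.00372). The WT values rest on 5 to 15 reads a library for Gata1 and 6 to 9 for Nfe2, and both genes passed the minimum only through WT. Ldb1, a bridging cofactor, and Lmo2, its partner, were the most abundant of the list, with log2 fold changes of 0.46 and 0.18.

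Of 15 tested red cell membrane genes, 2 were called lower, Rhag and Dmtn, or 13.3% against 18.7% of all tested genes. At an unadjusted P-value under 0.05, 10 were lower and 0 higher, or 66.7% against 44.3% of all tested genes, and the median log2 fold change was −2.71 against −1.99. Neither call was made by voom (adjusted P-values of 0.0157 and 0.0792), whose 1 call in this list was Rhd, another Rh protein gene, named after its values were seen. Rhag, the Rh-associated glycoprotein, was at 21.1 ± 7.57 in WT (SD, n = 4) against 0.801 ± 1.39 in dyW (SD, n = 3) (log2 fold change −3.82, limma adjusted P-value of 0.00555). Dmtn, which bundles actin in the membrane skeleton, was at 88.3 ± 34.5 in WT and 4.60 ± 5.50 in dyW (log2 fold change −4.48, limma adjusted P-value of 0.00598). The WT values rest on 5 to 10 reads a library for Rhag and 20 to 33 for Dmtn, and both genes passed the minimum only through WT. Epb41, a protein of the membrane skeleton, was at 88.4 ± 47.2 and 122 ± 23.1, and Aqp1, a water channel that endothelium also uses, at 90.9 ± 43.8 and 49.6 ± 65.8.

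Of 13 tested genes of the red cell cytosol and of maturation, 1 was called lower by limma and by voom, or 7.69% against 18.7% of all tested genes, and the median log2 fold change was 0.70. Epor, the erythropoietin receptor, was at 28.0 ± 8.84 in WT (SD, n = 4) against 0.295 ± 0.511 in dyW (SD, n = 3) (log2 fold change −4.50, limma adjusted P-value of 0.00372). The WT values of Epor rest on 7 to 10 reads a library, and it passed the minimum only through WT. Prdx2, an abundant red cell peroxidase, was at 391 ± 502 and 476 ± 318. Bnip3l, which clears mitochondria from maturing red cells, was at 115 ± 76.6 and 334 ± 92.9, with every dyW library above every WT library (limma adjusted P-value of 0.0713). Bpgm, which makes the red cell metabolite that lowers the oxygen affinity of hemoglobin and was named after its values were seen, was at 39.1 ± 20.1 and 141 ± 63.6 and likewise did not overlap (limma adjusted P-value of 0.0680). These 2 of the 13 tested genes stand against 3.28% of all tested genes with every dyW library above every WT library. Tfrc, the transferrin receptor, was at 83.1 ± 16.0 and 261 ± 190. In WT, the 5 called genes of these lists lay between 0.977 and 11.2 times the level per kb of the odorant and vomeronasal receptor genes.

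**Figure D5:**
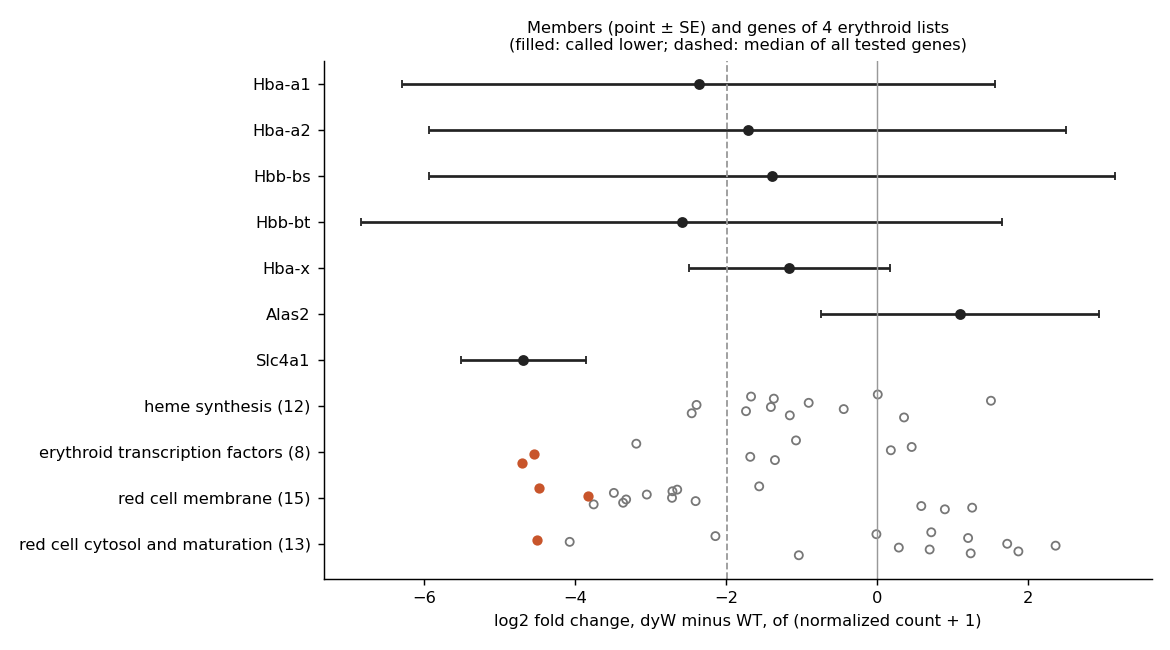
Log2 fold changes (dyW minus WT, of normalized count + 1) of the 7 tested members, with bars of ± SE, and of the tested genes of 4 erythroid lists, with the number of genes in brackets; filled orange points were called lower, the solid line marks 0 and the dashed line the median of all tested genes at −1.99. Error bars of the 4 adult globins span both lines, and Slc4a1 lies at −4.68 beside the called list genes.

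Regulators of the globin switch, which act on the change from embryonic to adult genes, gave 1 call among 7, or 14.3% against 18.7% of all tested genes. Myb was called lower by limma but not by voom (adjusted P-value of 0.138), with 30.8 to 62.0 normalized counts in WT and 0 to 7.59 in dyW (log2 fold change −4.03, limma adjusted P-value of 0.00758). Chd4, Nr2c2 and Sox6, the most abundant of the list, had log2 fold changes of 0.66, 0.42 and −0.49. Of 13 genes of heme and iron turnover, 1 was called lower, or 7.69%: Hpx, the plasma heme carrier made by liver, with 6.15 to 58.6 in WT and 0 in every dyW library (limma adjusted P-value of 0.00466). The ferritin chains Fth1 and Ftl1 and the biliverdin reductase Blvra led that list, with log2 fold changes of −0.57, −0.07 and 1.28. Of the other globins, 1 of 2 tested was called lower, against 18.7% of all tested genes. This was the neuronal gene Ngb, at 4.10 to 12.6 in WT, which rest on 2 to 4 reads a library, against 0 in every dyW library (limma adjusted P-value of 0.00520). Its mean of 5.45 over the 7 libraries passed the filter only through WT. Myb and Hpx, with dyW means of 3.08 and 0, likewise passed the filter only through WT. Their WT values rest on 7 to 23 reads a library for Myb and 3 to 11 for Hpx. Cygb was at 13.4 ± 11.7 and 5.33 ± 7.60.

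In WT2, WT3, WT4, dyW2 and the library labelled dyW3, other blood and liver markers were low beside the adult globins. In WT1 and dyW1 the adult globins summed to 5.33 and 8.67 normalized counts, less than the leukocyte and platelet markers did. The 6 measured platelet markers summed to 123 to 167 normalized counts in WT and 14.6 to 614 in dyW, with 2 of the 6 (33.3%) called lower, against 18.7% of all tested genes. At an unadjusted P-value under 0.05, 5 of the 6 platelet markers were lower (83.3%), against 44.3% of all tested genes that passed it in either direction. The 12 measured leukocyte markers summed to 192 to 645 in WT and 74.3 to 322 in dyW, with 1 of 10 tested called lower, and the 6 measured liver markers to 85.3 to 178 and 0.126 to 142.6, with 1 of 5 called lower, against the same background. In dyW2, 5 of the 6 liver markers had no read. Of 10 endothelial markers, limma and voom called 0 (2 were higher at an unadjusted P-value under 0.05), and of 13 muscle fiber markers likewise 0 (3 were lower).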

How the data were processed

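RNA from muscle fibers of 4 WT and 3 dyW fetuses at E17.5 was measured, 1 library per sample, and groups follow the genotype in the labels. After trimming (Cutadapt) and alignment to GRCm39 (RNA STAR), the authors counted uniquely mapped reads per gene (FeatureCounts) and deposited counts divided by a DESeq2 size factor per library. The table of the authors' own comparison (fold changes, P-values) was not used. Tool versions, annotation release and strand setting are not given in the sources used here.

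Whole reads were recovered from the step of each library, and 100% of values came out whole within 0.1 read. The main test was limma 3.58.1 (R 4.3.3), run with lmFit and a trended eBayes on log2(normalized count + 1) for genes averaging 5 or more, with Benjamini-Hochberg adjustment, and tested on simulated data. Called means an adjusted P-value below 0.01 with a log2 fold change beyond 1.5 in size. Single genes were compared by exact permutation over 35 splits (scipy 1.17.1, Python 3.11.15). Shares carry exact Clopper-Pearson intervals at 95%. Coordinates, mRNA lengths and sequences came from GRCm39 with GENCODE annotation, where 99.2% of identifiers matched. Members and lists were chosen with earlier results of these data known. Named genes are the members, called list genes, the 3 of highest mean per list (1 of them is not reported here) and the 5 most like Hbb-bs and Hba-x; platelet, leukocyte, liver, endothelial and muscle fiber lists are given as sums and counts. Labels do not say whether fetuses shared a litter, so P-values measure the spread between these samples.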

Additional observations from a re-analysis of the deposited data

Results flagged for a closer look

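In the WT group, WT1 stood apart for all 4 adult globins on the scale of log2(normalized count + 1). The gap between WT1 and its nearest neighbor was 0.886 of the range of the group for Hba-a1, 0.904 for Hba-a2, 0.940 for Hbb-bs and 0.929 for Hbb-bt, above Dixon's 95% critical value for 4 samples. Chance alone passes this limit in about 1 of 20 groups, and the 4 genes share their red cell source and much of their sequence, so they count as 1 pattern. On the linear scale no member passed the limit in WT, and the dyW group, with 3 libraries, was not tested. WT1 held the fewest reads of the series (470804) and the lowest summed muscle fiber markers of its group (2788 normalized counts), and their part in the low globin counts was not tested.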

How the results depend on the processing

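Of the 7 tested members, Slc4a1 kept its direction in all 15 alternatives that gave a value and its call in 4, with fold changes on the log2 scale from −6.49 to −2.23. The number of members called lower was 0 with a pseudocount of 10, with a mean of at least 50 (which leaves Slc4a1 out), with the same total, with quantile normalization, with the replicate block, without WT1 and dyW1 together and with voom on recovered reads, and 0 to 1 with single libraries left out; members called higher stayed at 0. Other erythroid genes called lower were 0 with a pseudocount of 10, a mean of at least 50, the same total, quantile normalization, the replicate block, and without WT1 and dyW1, 9 at looser thresholds (adjusted P-value below 0.05, log2 fold change beyond 1 in size), and 0 to 10 with single libraries left out. All genes called lower were 4830, against 0 with a pseudocount of 10, a mean of at least 50, the same total and without WT1 and dyW1, 2 with quantile normalization, 1 with the replicate block, 7625 at the looser thresholds and 0 to 6698 with single libraries left out. Genes called higher were 17, against 41 with a pseudocount of 0.1, 10 without a filter, 0 with a pseudocount of 10, a mean of at least 50, the same total, quantile normalization, the replicate block and without WT1 and dyW1, 68 with voom, 261 at the looser thresholds and 0 to 25 with single libraries left out. The cause of these shifts was not tested. Estimates that turned sign were those of Hba-a1 (0.0052 with quantile normalization, 2.14 without dyW1), Hba-a2 (2.53 without dyW1), Hbb-bs (0.53 with quantile normalization, 0.20 without WT2, 2.67 without dyW1), Hbb-bt (1.25 without dyW1), Hba-x (1.38 with quantile normalization) and Alas2 (−0.49 without WT1), none of them called. With single libraries left out, log2 fold changes ran from −5.35 to 2.14 for Hba-a1, −5.34 to 2.53 for Hba-a2, −5.53 to 2.67 for Hbb-bs, −6.43 to 1.25 for Hbb-bt, −2.57 to −0.46 for Hba-x and −0.49 to 2.62 for Alas2. The median of all tested genes was −1.99, −1.24 with the same total and 0.06 with quantile normalization.

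The mean difference in globin share of all counts (dyW minus WT) was 0.254 percentage points, 1.83 per kb of mRNA, −2.16 without mitochondrial and ribosomal RNA genes in the denominator and −2.74 to 2.06 with single libraries left out. The alpha share, the embryonic share, the zeta share of alpha and the embryonic share of beta moved by less than the larger of the group SDs. The alpha share difference was nevertheless 12.7 points without dyW1. Without dyW2 the difference turned from 2.75 to −9.82 points for the alpha share, from 0.011 to −0.010 for the embryonic share and from 0.038 to −0.020 for the zeta share of alpha.

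In the replicate block, the limma adjusted P-value of Slc4a1 was 0.0614 and its log2 fold change −4.48; same-numbered libraries share only a number, with correlations of their deviations of 0.147, −0.049 and −0.088. The planned tests with the 2 count-based tools (negative binomial models) were not run, and voom on the recovered reads, chosen after seeing the data like the fit without WT1 and dyW1, stood in for them. Depth limits the embryonic globins and Slc4a1 in WT most, where 1 read is worth 2.05 to 5.33 normalized counts.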
